A study of Mus musculus with 72 samples.

Results

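The 10 genes described here are ER chaperone and unfolded protein response genes: Hspa5, Hsp90b1, Hyou1, Pdia4, Dnajb9, Sdf2l1, Creld2, Manf, Herpud1 and Ddit3. They were chosen by name, for what their products do, out of the 23787 genes that a probe of the array could be matched to by symbol, and they are measured by 17 of its 56605 non-control probes. Earlier results of these data were known when these genes and the gene lists below were chosen. Each gene is given by its brightest probe, and the 5 genes with more than 1 probe (Hspa5, Hyou1, Dnajb9, Manf and Herpud1) are also described by the others where these differ.

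The samples were liver and lung of female C57BL/6 J mice, 6 to 8 weeks old, taken 48 h after sham irradiation (0 Gy) or after whole-body exposure to X-rays at 5 doses (1, 2, 4, 8 and 12 Gy, each given once). There were 3 mice per dose, so 18 arrays per tissue and 36 mRNA arrays in all out of 72 in the series. Each array measured RNA of a whole piece of tissue with all its cell types, and in such samples fewer cells of a type and less RNA per cell cannot be told apart. Replicates are named by the sample number in the labels, written here as the number of the mouse. The same numbers occur in liver and lung, but the labels do not say that they stand for the same animals.

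The labels were set against the data first. The mean log2 level of 14 hepatocyte marker genes was 17.75 to 17.91 on the liver arrays and 6.89 to 10.46 on the lung arrays apart from the 4 Gy lung of mouse 24, where it was 12.81. No gene of the 10 was past the test at 4 Gy in lung, with or without that array. Cdkn1a, a p53 target that arrests the cell cycle, rose by 6.33 ± 0.24 (SE) on the log2 scale at 12 Gy in liver (limma, adjusted p = 2.32e-09) and by 3.64 ± 0.20 in lung (limma, adjusted p = 1.93e-08), and 9 of 10 p53 targets rose at 12 Gy in either tissue. The arrays lay on 5 slides in order of tissue and dose, so that slide and dose run together. Spots well above background made up 46.1% to 54.0% of each liver array and 54.1% to 64.0% of each lung array, and no spot of the 10 genes was saturated.

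Proteins that enter the secretory pathway fold in the endoplasmic reticulum (ER) with the help of resident chaperones and of enzymes that form disulfide bonds. When unfolded proteins build up, the sensors IRE1 (Ern1), PERK (Eif2ak3) and ATF6 start the unfolded protein response, in which spliced XBP1 and cleaved ATF6 raise chaperones and degradation factors, while PERK slows translation and, through ATF4, raises genes such as Ddit3. Hepatocytes secrete most plasma proteins and alveolar type 2 cells secrete surfactant, so both tissues hold cells with a large ER.

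A promoter window, from 250 bases before to 50 bases after the transcription start, was given in the RefSeq table (GRCm38.p6) for 8 of the 10 genes, all but Hyou1 and Manf. The ER stress response element, which ATF6 and XBP1 bind with the factor NF-Y, was searched on both strands as CCAAT, 9 bases of any kind and CCACG. These sites are shown because the element is the classical mark of the chaperone genes and because only some members carry it whole; capitals mark the fixed letters of the element, 5′ to 3′.
Hspa5: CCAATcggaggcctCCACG
Hsp90b1, same strand: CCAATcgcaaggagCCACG
Hsp90b1, opposite strand: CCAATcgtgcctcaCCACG
Creld2, opposite strand: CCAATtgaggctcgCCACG

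The Hspa5 site lay at chr2:34772025-34772043 on the forward strand, 65 to 47 bases before the start. Hsp90b1 held a site on its own, reverse strand at chr10:86705638-86705656, 212 to 194 bases before the start, and another on the opposite strand at chr10:86705533-86705551. The Creld2 site lay at chr15:88819520-88819538 on the strand opposite to the gene. The full element was thus in 3 of the 8 windows (37.5%) against 39 of all 32851 promoter windows (0.119%), in 5 of 28 windows of other ER chaperones and folding enzymes (Calr, Canx, Dnajc3, Ero1b and Pdia6) and in 2 of 15 windows of ER-associated degradation genes (Derl3 and Syvn1).

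The windows of Sdf2l1, Pdia4, Dnajb9, Herpud1 and Ddit3 did not hold these letters in full. The short end CCACG, which the full element contains, was in 7 of the 8 windows (32.8% of all windows), and CCAAT was in all 8 (37.4% of all). The core of the unfolded protein response element, TGACGTG, was in the Hspa5 window at chr2:34771933-34771939, as in 2.01% of all windows. The composite element of C/EBP and ATF factors, TGATGNAA, stood in the Herpud1 window on the opposite strand at chr8:94386317-94386324 as TGATGcAA, and in 3.97% of all windows. It was in 10 of 32 windows of PERK, ATF4 and CHOP target genes.

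In liver Sdf2l1 fell at 4, 8 and 12 Gy and had the steepest dose trend of the 10 genes, Creld2 fell at 2, 4 and 12 Gy, Manf fell at 12 Gy and Ddit3 at 4 Gy, while Herpud1 rose at 8 and 12 Gy. A gene is called past the test where the Benjamini-Hochberg adjusted p of limma, over all tested probes of the tissue, is under 0.05. All doses are set against the same 3 unirradiated arrays, so the comparisons within a tissue are not independent.

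**Figure D1:**
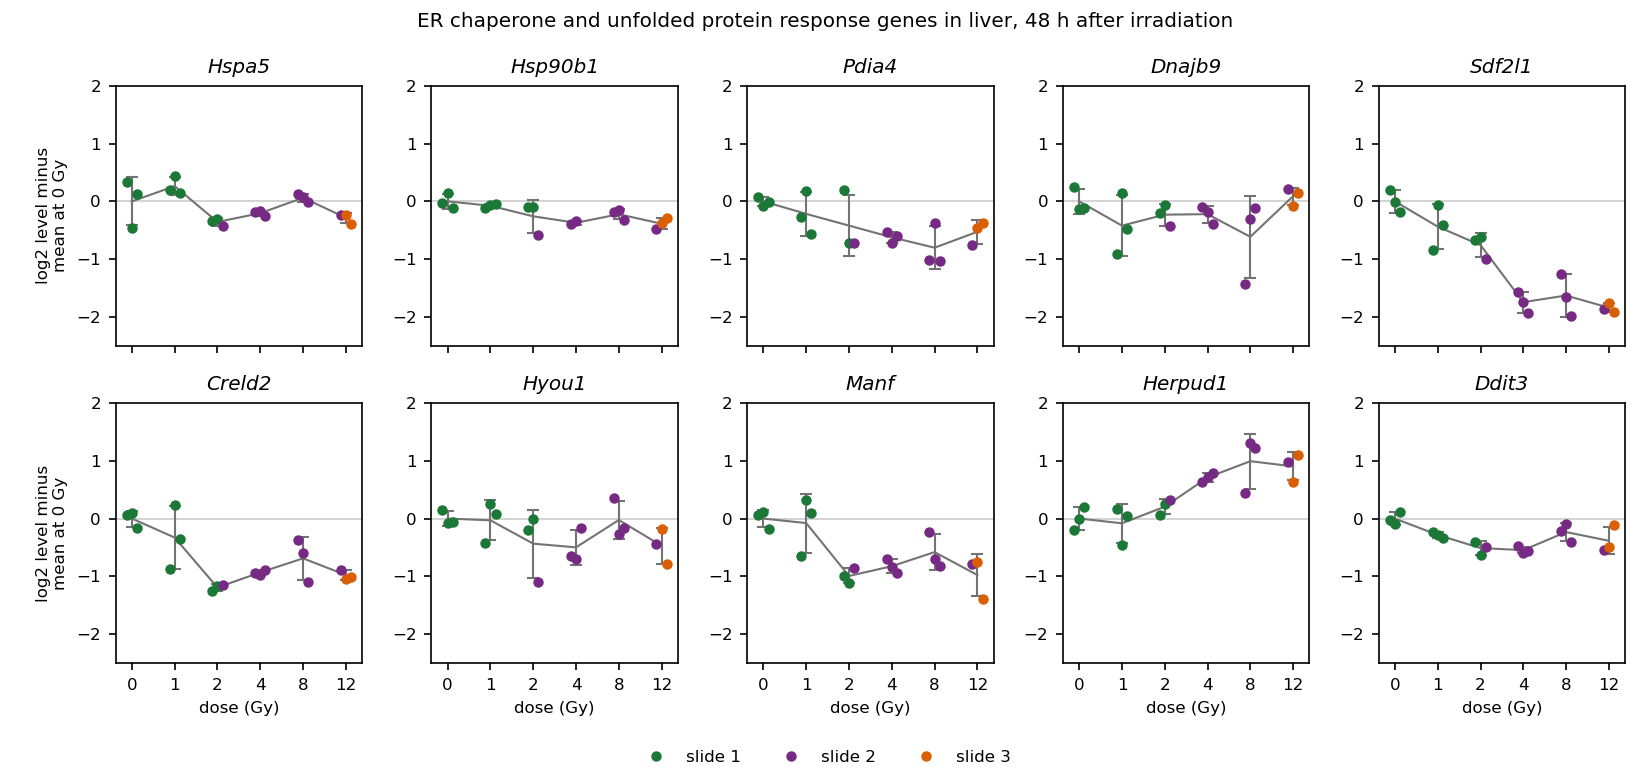
Levels of the 10 genes in liver against dose (Gy), each as log2 level minus the mean of the gene at 0 Gy. Points are single arrays coloured by slide, lines join the dose means and bars are SD over 3 mice (2 for Hsp90b1 at 4 Gy); Sdf2l1 lies 1.63 to 1.84 below its unirradiated mean from 4 Gy on, and Herpud1 lies 0.90 to 0.99 above it at 8 and 12 Gy.

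The number of genes past the test in liver was 0 at 1 Gy (limma; 0.0417% of 38362 tested probes were past it), 1 at 2 Gy (0.461%), 3 at 4 Gy (3.31%), 2 at 8 Gy (9.9%) and 4 at 12 Gy (7.01%). At 1 Gy 1 gene, Ddit3, had an unadjusted limma p under 0.05, as did 7.08% of all probes. Of the 4 genes at 12 Gy, 3 were lower (4.1% of all probes) and 1 was higher (2.91%). A change of more than 2-fold beside the test was seen for 1 gene at 2 Gy (Creld2; 0.245% of all probes) and for 1 gene, Sdf2l1, at each of 4 Gy (0.944%), 8 Gy (2.2%) and 12 Gy (2.06%). In the linear dose trend 2 genes were past the test (9.51% of all probes), Sdf2l1 lower and Herpud1 higher, both by more than 2-fold over 12 Gy (2.02%).

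The median log2 change of the 10 genes in liver was -0.15 at 1 Gy, -0.43 at 2 Gy, -0.52 at 4 Gy, -0.41 at 8 Gy and -0.43 at 12 Gy, where the median of all tested probes was between 0.00 and 0.01. All 3 irradiated arrays lay below all 3 unirradiated arrays for 1 gene at 1 Gy (6.25% of all probes), 4 at 2 Gy (9.44%), 6 at 4 Gy (15.3%), 6 at 8 Gy (15.9%) and 7 at 12 Gy (15%). All 3 lay above for Herpud1 at 4 Gy (17%), 8 Gy (16%) and 12 Gy (14.8%).

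Sdf2l1 encodes a small resident protein that works with the Hspa5 chaperone and its J-domain partners. Its log2 levels in liver were 12.21, 11.99 and 11.82 at 0 Gy, 11.17, 11.94 and 11.60 at 1 Gy, and 11.34, 11.39 and 11.01 at 2 Gy. At 4 Gy they were 10.44, 10.27 and 10.07, at 8 Gy 10.75, 10.35 and 10.02, and at 12 Gy 10.15, 10.25 and 10.10. All 9 livers from 4 Gy on were thus lower than all 9 livers at 2 Gy or less, with no overlap. This split was seen in the data, and its share among all probes was not counted. Apart from the 2 Gy mouse 23, it is also the split between slide 1 and slides 2 and 3.

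Sdf2l1 was 3.35-fold lower at 4 Gy (-1.74 ± 0.21 SE on the log2 scale, limma adjusted p = 0.000435) and 3.09-fold lower at 8 Gy (-1.63, limma adjusted p = 0.000382). At 12 Gy it was 3.58-fold lower (-1.84, 95% interval -2.28 to -1.40, limma adjusted p = 0.000106). The differences at 1 Gy (-0.44 ± 0.21, limma adjusted p = 0.708) and 2 Gy (-0.76, limma adjusted p = 0.145) were not past the test. Its trend over 12 Gy was -1.70 ± 0.29 (interval -2.30 to -1.09, limma adjusted p = 0.000996). The 3 calls and the trend held in each of the 18 fits that left out 1 liver array.

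Neighbouring doses, compared after the data were seen, did not differ past the test in limma for any of the 10 genes in liver, where 0.00521% of all probes did between 8 and 4 Gy and 0% at the other steps. An unadjusted limma p under 0.05 was found for 1 to 3 genes per step, among them Sdf2l1 and Herpud1 between 4 and 2 Gy, and for 9.78% to 10.8% of all probes. In lung it was found for Hsp90b1 and Pdia4 between 2 and 1 Gy (6.27% of all probes) and for no other gene at that step. At the higher steps it was found for none of the 10 genes, and for 5.13%, 4.77% and 19.7% of all probes in turn. No gene was past the adjusted test in limma (0.00227%, 0%, 0.0091% and 0.234% of all probes from the lowest step to the highest).

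Creld2, a resident protein with thiol oxidoreductase activity that is secreted under ER stress, measured 13.02, 13.07 and 12.81 at 0 Gy and 12.10, 13.21 and 12.62 at 1 Gy in liver. Its levels were 11.71, 11.80 and 11.82 at 2 Gy, 12.03, 11.99 and 12.09 at 4 Gy, 12.59, 12.37 and 11.88 at 8 Gy and 12.09, 11.93 and 11.97 at 12 Gy. The mice at 2, 4 and 12 Gy lay close together and below the unirradiated mice, whereas the 1 Gy mice spread from 12.10 to 13.21.

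Creld2 fell by 1.19 ± 0.22 (SE, log2) at 2 Gy (limma adjusted p = 0.0292), by 0.93 at 4 Gy (limma adjusted p = 0.0331) and by 0.98 at 12 Gy (limma adjusted p = 0.0144), while the difference at 8 Gy was -0.69 (limma adjusted p = 0.0629, and 0.0256 or 0.0235 without the 1 Gy mouse 2 or 12). Its lowest mean was at 2 Gy, and the linear trend of -0.57 ± 0.28 was not past the test (limma adjusted p = 0.231). With dose as log2(dose + 1) the Creld2 trend was past it (limma adjusted p = 0.0457), where 5357 of 38362 probes were. On that scale the liver trends of Manf, Hsp90b1 and Pdia4, not past the test as linear trends, were past it too. The calls depended on single arrays. That at 2 Gy was not past the test without any one of the 0 Gy mice 1, 11 or 21, the 2 Gy mice 3, 13 or 23 or the 4 Gy mouse 4 (-1.14 to -1.27, limma adjusted p = 0.0506 to 0.138). That at 4 Gy was not past it without any one of the 0 Gy or 4 Gy arrays (-0.88 to -1.01, limma adjusted p = 0.057 to 0.129), and that at 12 Gy was not past it without the 0 Gy mouse 1 or 11 or the 12 Gy mouse 26 (-0.93 to -0.96, limma adjusted p = 0.0504 to 0.0641).

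Manf, a secreted protein of the ER that protects cells under stress, had the same course. Its log2 levels in liver were 13.38, 13.42 and 13.14 at 0 Gy, 12.66, 13.63 and 13.42 at 1 Gy and 12.31, 12.19 and 12.45 at 2 Gy. At 4 Gy they were 12.61, 12.47 and 12.38, at 8 Gy 13.08, 12.62 and 12.50, and at 12 Gy 12.52, 12.56 and 11.93. Every mouse from 2 Gy on was below the lowest unirradiated mouse, whose level was 13.14.

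Manf fell by 0.98 ± 0.23 (SE, log2) at 12 Gy (limma adjusted p = 0.0198). The differences at 2 Gy (-0.99 ± 0.23, limma adjusted p = 0.0852) and 4 Gy (-0.82, limma adjusted p = 0.0699) and the trend (-0.69 ± 0.27, limma adjusted p = 0.122) were not past the test. The 12 Gy call was not past it without the 0 Gy mouse 1 or 11 or the 12 Gy mouse 26 (-0.77 to -0.94, limma adjusted p = 0.0674 to 0.0927), and the 2 and 4 Gy differences were past it without the 1 Gy mouse 2 (limma adjusted p = 0.0356 and 0.0281). The second Manf probe, A_66_P135155, was past the test at 2 Gy (-1.19, limma adjusted p = 0.0363), 4 Gy (-1.07, limma adjusted p = 0.0215), 8 Gy (-1.02, limma adjusted p = 0.0134) and 12 Gy (-1.18, limma adjusted p = 0.00623).

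Herpud1 encodes an ER membrane protein of the degradation machinery that takes misfolded proteins back to the cytosol. Its log2 levels in liver were 13.66, 13.85 and 14.05 at 0 Gy, 14.02, 13.39 and 13.91 at 1 Gy and 13.91, 14.10 and 14.17 at 2 Gy. At 4 Gy they were 14.48, 14.57 and 14.65, at 8 Gy 14.30, 15.16 and 15.08 and at 12 Gy 14.83, 14.49 and 14.95. All livers from 4 Gy on were above all livers at lower doses, the same split as for Sdf2l1 in the other direction and with the same limits.

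Herpud1 rose by 0.99 ± 0.22 (SE, log2) at 8 Gy (limma adjusted p = 0.0117) and by 0.90 at 12 Gy (limma adjusted p = 0.021), with a trend of 1.08 ± 0.21 over 12 Gy (interval 0.64 to 1.51, limma adjusted p = 0.0025). The difference at 4 Gy was 0.71 (limma adjusted p = 0.0922). The 8 Gy call was not past the test without the 8 Gy mouse 15 (0.84, limma adjusted p = 0.0535), nor the 12 Gy call without the 0 Gy mouse 1 or 11 or the 12 Gy mouse 6 or 26 (0.81 to 0.90, limma adjusted p = 0.0697 to 0.087). The second Herpud1 probe, A_55_P2810587, gave 0.40 at 8 Gy (limma adjusted p = 0.224), 0.88 at 12 Gy (limma adjusted p = 0.0136) and a trend of 0.95 ± 0.16 (limma adjusted p = 0.00101).

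Ddit3, the transcription factor CHOP downstream of PERK and ATF4, measured 9.49, 9.44 and 9.64 at 0 Gy and 9.30, 9.24 and 9.19 at 1 Gy in liver. Its levels were 9.12, 8.89 and 9.02 at 2 Gy, 9.04, 8.93 and 8.96 at 4 Gy, 9.31, 9.44 and 9.12 at 8 Gy and 8.98, 9.03 and 9.41 at 12 Gy. At every dose all 3 irradiated livers were below all 3 unirradiated livers, at 8 Gy by a margin that 2 decimals do not show. Ddit3 fell by 0.55 at 4 Gy (limma adjusted p = 0.0296), a call that was not past the test without any one of the 0 Gy or 4 Gy arrays (-0.49 to -0.59, limma adjusted p = 0.0717 to 0.102). The differences at 1 Gy (-0.28 ± 0.13), 2 Gy (-0.51), 8 Gy (-0.23) and 12 Gy (-0.38) had limma adjusted p of 0.698, 0.105, 0.267 and 0.085, and that at 12 Gy was past the test without the 12 Gy mouse 26 (-0.52, limma adjusted p = 0.0273).

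By their brightest probes Hspa5, Hsp90b1 and Hyou1 were not past the test at any dose in liver. Hspa5, the Hsp70 of the ER that also holds the sensors inactive, had log2 levels of 15.48, 14.68 and 15.26 at 0 Gy, 14.80, 14.83 and 14.71 at 2 Gy and 14.90, 14.91 and 14.75 at 12 Gy. The unirradiated mouse 11 was as low as the irradiated mice, and the groups overlapped at every dose. The Hspa5 difference was -0.36 ± 0.16 (SE) at 2 Gy (limma adjusted p = 0.402) and -0.28 at 12 Gy (limma adjusted p = 0.35), and its other probes gave -0.60 and -0.70 at 2 Gy (limma adjusted p = 0.185 and 0.108).

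Hsp90b1, the Hsp90 of the ER, had levels of 15.72, 15.88 and 15.63 in unirradiated livers and 15.26, 15.36 and 15.45 at 12 Gy, with no overlap. The difference at 12 Gy was -0.39 ± 0.13 (SE, log2, limma adjusted p = 0.0995) and the trend was -0.29 ± 0.12 (limma adjusted p = 0.129), past the test without the 2 Gy mouse 23 (-0.34, limma adjusted p = 0.0328). The value of mouse 24 at 4 Gy was left out of its fit, since the scanner had marked the spot as an outlier.

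Hyou1, a large Hsp70 relative that exchanges nucleotide on Hspa5, was dim. Its brightest probe was well above background on 17 of 18 liver arrays, all but that of mouse 23 at 2 Gy. Its levels were 6.17, 5.94 and 5.96 at 0 Gy and 5.57, 5.85 and 5.23 at 12 Gy, and its difference at 12 Gy was -0.47 ± 0.28 (SE, log2, limma adjusted p = 0.379). Another Hyou1 probe, A_65_P20167, fell at 8 Gy (-1.05, limma adjusted p = 0.0396) and 12 Gy (-1.28 ± 0.30, limma adjusted p = 0.0173), and the mean of all Hyou1 probes fell at 12 Gy (-0.71, limma adjusted p = 0.0461). The 2 dimmer Hyou1 probes were well above background on only 4 and 6 of 18 liver arrays.

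Pdia4, a disulfide isomerase, had levels of 12.87, 12.71 and 12.78 at 0 Gy, 12.25, 12.06 and 12.19 at 4 Gy, 11.78, 12.41 and 11.76 at 8 Gy and 12.03, 12.33 and 12.42 at 12 Gy in liver. It was below all unirradiated livers at each of these doses, and its difference of -0.80 ± 0.25 (SE, log2) at 8 Gy missed the threshold (limma adjusted p = 0.0561). It was past it in the fits without the 1 Gy mouse 12, the 2 Gy mouse 3 or the 8 Gy mouse 15 (-0.80 to -1.02, limma adjusted p = 0.0221 to 0.0467). Dnajb9, a J-domain cochaperone of Hspa5 and a target of XBP1, measured 12.02, 11.63 and 11.65 at 0 Gy and 11.98, 11.69 and 11.90 at 12 Gy. Its groups overlapped, and its trend in liver was 0.08 ± 0.27 (limma adjusted p = 0.904).

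Slide and dose overlapped strongly in liver. Slide 1 held all arrays of 0 and 1 Gy and the 2 Gy mice 3 and 13, slide 2 held the 2 Gy mouse 23, all arrays of 4 and 8 Gy and the 12 Gy mouse 6, and slide 3 held the 12 Gy mice 16 and 26 next to unirradiated and 1 Gy lungs. A fit with slide as a fixed term put none of the 10 genes past the test in limma at any dose or in the trend, and 1 (Ddit3), 4, 4, 2 and 1 (Sdf2l1) of them at an unadjusted p under 0.05 at 1 to 12 Gy. The share of all probes at an unadjusted p under 0.05 was not counted in that fit, so these numbers have no background beside them. The share past the test fell to 0.0182% at 1 Gy, 0.362% at 2 Gy, 0.177% at 4 Gy, 0.704% at 8 Gy, 0.845% at 12 Gy and 0.282% in the trend. In that fit the Sdf2l1 differences were -1.39 at 4 Gy (limma adjusted p = 0.24), -1.28 at 8 Gy (limma adjusted p = 0.156) and -1.50 at 12 Gy (limma adjusted p = 0.148), and its trend was -0.72 (limma adjusted p = 0.487). The Herpud1 differences were 0.83 at 8 Gy and 0.82 at 12 Gy, that of Creld2 at 2 Gy was -1.21 (limma adjusted p = 0.0718), and those of Manf at 12 Gy and Ddit3 at 4 Gy were -0.995 and -0.56.

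Within slide 1 the 2 Gy arrays minus the 0 Gy arrays gave -0.64 for Sdf2l1, -1.21 for Creld2, -1.06 for Manf, -0.52 for Ddit3 and 0.15 for Herpud1. Within slide 2 the single 12 Gy array minus the single 2 Gy array gave -0.86 for Sdf2l1, 0.66 for Herpud1, 0.27 for Creld2, 0.07 for Manf and -0.04 for Ddit3. When slide was a random block, all calls of Sdf2l1, Herpud1 and Manf and those of Creld2 at 2 and 12 Gy remained, and those of Creld2 (-0.94, limma adjusted p = 0.0705) and Ddit3 (-0.54, limma adjusted p = 0.07) at 4 Gy did not. The part of slide in these differences cannot be told apart from that of dose where the arrays do not share a slide.

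Markers of other cell types moved with dose in the same livers. The mean log2 level of 11 plasma cell genes, a cell type rich in ER, was 7.71 to 7.81 at 0 Gy, 7.43 to 7.68 at 1 Gy, 7.18 to 7.55 at 2 Gy, 7.13 to 7.15 at 4 Gy, 6.99 to 7.08 at 8 Gy and 6.82 to 7.17 at 12 Gy. At 12 Gy 4 of the 10 tested plasma cell genes were lower (4.1% of all probes) and none was higher (2.91%). The lower ones were Mzb1 (-0.90), Derl3 (-2.17), Irf4 (at least 2.08-fold lower) and Pou2af1 (at least 5.24-fold lower), the last 2 not well above background in any 12 Gy liver. Such a bound sets the mean of the unirradiated arrays against the dimmest signals well above background.

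In the same comparison 9 of 12 macrophage genes, 8 of 12 tested B cell genes, 5 of 11 T cell genes and 4 of 9 tested endothelial genes were lower, and none of them was higher, beside the same shares of all probes. Neutrophil and erythroid genes went both ways. Camp (at least 2.06-fold), Slc4a1 (at least 2.24-fold) and Alas2 (-1.26) were lower, and Retnlg (at least 1.98-fold) and Ermap (0.45) were higher. The 14 hepatocyte genes had a median difference of 0.00 at 12 Gy and lay between -0.39 and 0.39. The part of these cell types in the fall of Sdf2l1, Creld2 and Manf was not tested.

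In lung none of the 10 genes was past the limma test up to 8 Gy. At 12 Gy Pdia4 fell and no other gene was past the test. Over all doses Pdia4 fell and Creld2 rose with dose, each by less than 2-fold over 12 Gy.

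**Figure D2:**
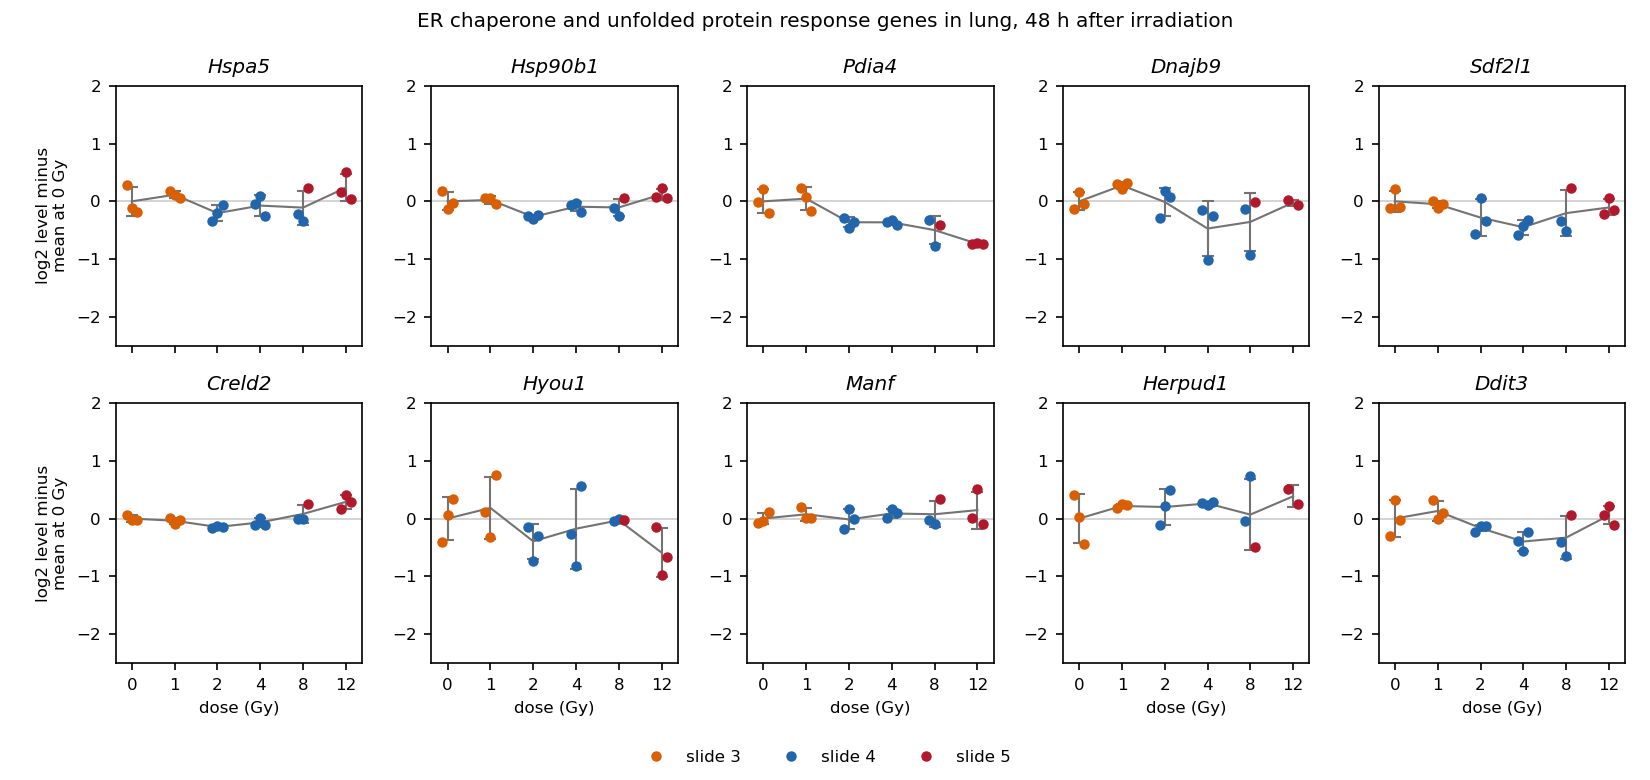
Levels of the 10 genes in lung against dose (Gy), drawn as for liver: log2 level minus the mean of the gene at 0 Gy, points for arrays coloured by slide, lines for dose means and bars for SD over 3 mice (2 for Dnajb9 and Herpud1 at 12 Gy). Pdia4 declines to 0.73 below its unirradiated mean at 12 Gy with little spread, and Sdf2l1 ends 0.11 below its own.

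No gene of the 10 was past the limma test in lung at 1 Gy (0.025% of 43979 tested probes), 2 Gy (0.555%), 4 Gy (2.18%) or 8 Gy (4.25%). With unadjusted limma p under 0.05 there were 0 genes at 1 Gy (5.52% of all probes), 1 at 2 Gy (Pdia4; 7.67%), 2 at 4 Gy (Pdia4 and Sdf2l1; 13.9%) and 1 at 8 Gy (Pdia4; 16.4%). At 12 Gy 1 gene was past the test, where 21.4% of all probes were (7.81% lower, 13.5% higher), and in the trend 2 of 10 genes were, where 30.7% of all probes were (11% lower, 19.7% higher). The median log2 change of the 10 genes was 0.09 at 1 Gy, -0.18 at 2 Gy, -0.13 at 4 Gy, -0.11 at 8 Gy and 0.09 at 12 Gy, against 0.01 to 0.09 over all probes.

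Pdia4 measured 11.93, 12.15 and 11.73 in unirradiated lungs, 12.17, 12.01 and 11.78 at 1 Gy and 11.66, 11.48 and 11.59 at 2 Gy. At 4 Gy its levels were 11.58, 11.61 and 11.53, at 8 Gy 11.62, 11.17 and 11.53, and at 12 Gy 11.20, 11.21 and 11.19. Every lung from 2 Gy on was below every lung at 0 or 1 Gy. This split was seen in the data, and its share among all probes was not counted. It is also the split between slide 3 and slides 4 and 5.

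Pdia4 was 1.66-fold lower at 12 Gy (-0.73 ± 0.15 SE on the log2 scale, interval -1.06 to -0.41, limma adjusted p = 0.00407). Its difference at 8 Gy was -0.50 ± 0.15 (limma adjusted p = 0.0862), and its trend was -0.71 ± 0.13 over 12 Gy (interval -0.98 to -0.43, limma adjusted p = 0.000719). Both calls held in each of the 18 fits without 1 lung array.

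Creld2 measured 13.44, 13.34 and 13.34 at 0 Gy, 13.36, 13.37 and 13.63 at 8 Gy and 13.54, 13.79 and 13.66 at 12 Gy in lung. The 12 Gy lungs were above the unirradiated lungs, by 0.29 ± 0.12 (SE, log2, limma adjusted p = 0.0994). The trend was 0.33 ± 0.10 (limma adjusted p = 0.0187) and was not past the test without the 12 Gy mouse 16 (0.26, limma adjusted p = 0.0783) or 26 (0.31, limma adjusted p = 0.0556).

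Sdf2l1, the gene that fell most in liver, measured 10.83, 11.16 and 10.84 at 0 Gy, 10.36, 10.51 and 10.61 at 4 Gy, 10.60, 10.43 and 11.18 at 8 Gy and 10.73, 10.99 and 10.79 at 12 Gy in lung. Its 4 Gy lungs were below the unirradiated lungs (-0.45, limma adjusted p = 0.325), and its 12 Gy lungs overlapped with them (-0.11, limma adjusted p = 0.745). Its trend was -0.05 ± 0.17 (SE), with a 95% interval of -0.41 to 0.32.

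Herpud1 measured 13.90, 13.53 and 13.06 in unirradiated lungs and 14.02 and 13.75 in 2 lungs at 12 Gy, where the spot of mouse 16 was marked as an outlier and left out, as it was for Dnajb9. Its trend of 0.17 ± 0.23 (SE, interval -0.32 to 0.65, limma adjusted p = 0.621) was not past the test. The trends of Hspa5 (0.17), Hsp90b1 (0.13), Manf (0.12), Dnajb9 (-0.32), Hyou1 (-0.46 ± 0.28) and Ddit3 (-0.07 ± 0.19) had limma adjusted p of 0.223 to 0.824. Ddit3 in lung was lowest at 4 Gy, with 10.78, 10.61 and 10.95, and was back at 11.24, 11.39 and 11.08 at 12 Gy, beside 10.88, 11.51 and 11.16 at 0 Gy.

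Probes of the same gene disagreed in lung for Hspa5 and Manf. The Hspa5 probe A_55_P2617149 fell at 12 Gy (-0.61 ± 0.18 SE, limma adjusted p = 0.0242) and in the trend (-0.60), whereas the brightest probe gave a trend of 0.17 and the third probe 0.07. The Manf probe A_66_P135155 fell at 12 Gy (-0.53 ± 0.18, limma adjusted p = 0.0494) and in the trend (-0.63 ± 0.15), whereas the brightest gave a trend of 0.12. The brightest Hyou1 probe was well above background on 14 of 18 lung arrays, and only on 1 of 3 at 12 Gy.

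In lung slide 3 held 0 and 1 Gy, slide 4 held 2 and 4 Gy and the 8 Gy mice 5 and 15, and slide 5 held the 8 Gy mouse 25 and all of 12 Gy. The 4 lung arrays on slide 5 had the fewest spots well above background, 54.1% to 54.8%. Doses from 2 Gy on could not be set against 0 Gy with slide as a fixed term, and the trends of Pdia4 (-0.48, limma adjusted p = 0.828) and Creld2 (0.22, limma adjusted p = 0.952) were not past the test, where 0.305% of all probes were. As a random block, slide left the Pdia4 trend at -0.68 (limma adjusted p = 0.00378) and its 12 Gy difference at -0.75 (limma adjusted p = 0.0527).

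Within slides Pdia4 differed by 0.05 between 1 and 0 Gy, by -0.18 between 8 and 2 Gy and by -0.33 between 12 and 8 Gy, and Creld2 by -0.04, 0.14 and 0.03. Without slide 5 the Pdia4 trend was -0.88 (limma adjusted p = 0.061) and that of Creld2 0.02 (limma adjusted p = 0.973), an alternative added after the data were seen. In that fit Ddit3 fell with dose (-0.98, limma adjusted p = 0.0425), where 2312 of 43979 probes were past the test. The plasma cell genes averaged 10.06 to 10.61 in unirradiated lungs and 9.15 to 9.72 at 12 Gy, with 4 of 11 lower (Jchain, Mzb1, Pou2af1 and Slamf7; 7.81% of all probes) and none higher (13.5%). In the same comparison 11 of 13 B cell genes and 10 of 11 T cell genes were lower while the 12 macrophage genes had a median difference of -0.05 (range -0.70 to 0.93). Of 9 genes of alveolar type 2 cells, 1 was lower at 12 Gy, the surfactant protein gene Sftpb (-1.18 ± 0.39 SE, limma adjusted p = 0.0413), and 1 was higher, the lipid transporter gene Abca3 (0.51, limma adjusted p = 0.0261), with a median of 0.05 over the 9. In the trend Sftpb (-1.19) and Sftpa1 (-0.40) were lower and Abca3 was higher (0.50). The part of these cells in the Pdia4 result was not tested.

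The dose trends of liver and lung were compared in a joint fit of all 36 arrays, in which 16.5% of 47376 probes differed between the tissues. Of the 10 genes, 2 differed, both with the higher trend in lung (11% of all probes), and 1 by more than 2-fold (7.19%). The trend of Sdf2l1 was higher in lung by 1.50 ± 0.33 (SE, log2 over 12 Gy, interval 0.83 to 2.16, limma adjusted p = 0.00200), and that of Creld2 by 0.88 ± 0.27 (interval 0.33 to 1.44, limma adjusted p = 0.0234).

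**Figure D3:**
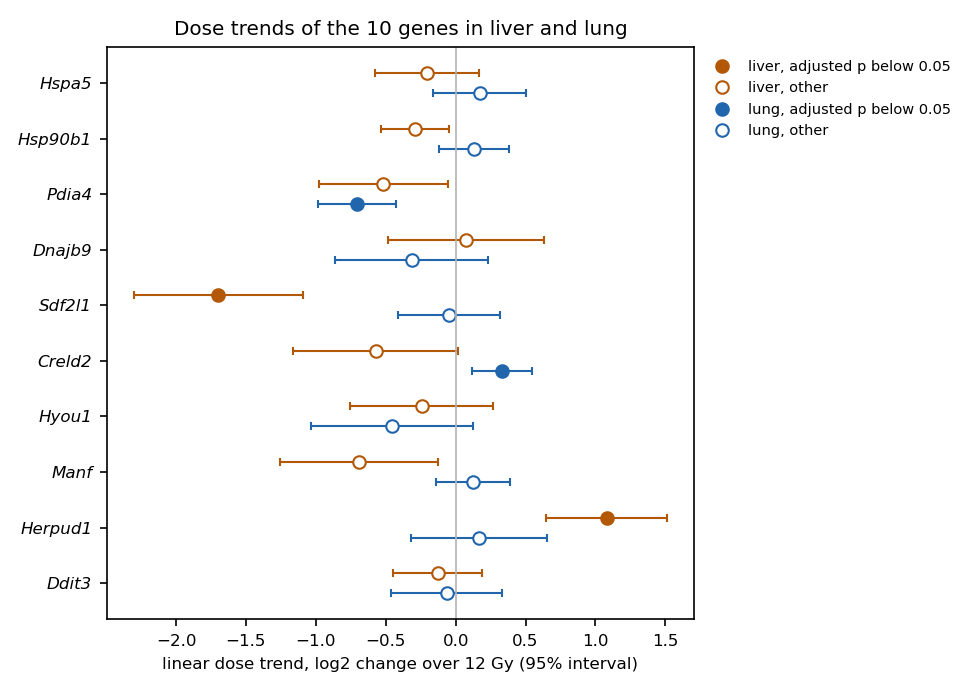
Dose trend of each of the 10 genes in liver and in lung, as log2 change over 12 Gy with its 95% interval; filled symbols have a limma adjusted p under 0.05. The liver and lung intervals of Sdf2l1 are apart (-2.30 to -1.09 and -0.41 to 0.32), while Pdia4 is filled in lung (-0.71) and Herpud1 in liver (1.08).

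The Sdf2l1 difference held in all 36 fits without 1 array, and that of Creld2 was not past the test without the 12 Gy lung of mouse 16 (0.80, limma adjusted p = 0.0674). The difference of Herpud1, -0.96 ± 0.35 (SE), missed the threshold (limma adjusted p = 0.0533), and by its second probe it was -0.93 ± 0.23 (limma adjusted p = 0.00459). Those of Manf (0.75 ± 0.28, limma adjusted p = 0.0627), Hsp90b1 (0.40 ± 0.16, limma adjusted p = 0.0783) and Pdia4 (-0.33 ± 0.24, limma adjusted p = 0.38) were not past it either. Leaving out 1 array put the Herpud1 difference past the test for the livers of mouse 5 (8 Gy) and 16 (12 Gy) and the lungs of mice 21 (0 Gy), 3 (2 Gy), 15 (8 Gy) and 6 (12 Gy), with -0.995 to -1.17. It did so for Manf with the livers of mice 3, 13 and 23 (2 Gy) and 5 (8 Gy), with 0.78 to 0.81, and for Hsp90b1 with the liver of mouse 23 (2 Gy) and the lung of mouse 1 (0 Gy), each with 0.44. Pdia4 fell with dose in lung and was not past the test in liver, and this difference was not itself past the test.

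The differences with slide as a fixed term were 0.19 for Sdf2l1 and 0.30 for Creld2, and no probe of the whole array was past the test (limma, 0%), nor had any of the 10 genes an unadjusted p under 0.05. The share of all probes under that unadjusted threshold was not counted. Taking slide as a random block gave 1.36 for Sdf2l1 (limma adjusted p = 0.0129) and 0.83 for Creld2 (limma adjusted p = 0.0891). Since the tissues lay on different slides apart from slide 3, tissue and slide cannot be told apart for most doses.

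Before irradiation 8 of the 10 genes differed between lung and liver, in a comparison where 52.8% of all probes did. Levels were lower in lung for 7 of them (26.8% of all probes) and higher for Ddit3 alone (26%). These levels come from the 36 arrays normalized together and therefore differ slightly from those above. Sdf2l1 measured 12.53, 12.34 and 12.18 in unirradiated livers and 10.28, 10.64 and 10.29 in unirradiated lungs, a 3.87-fold difference (-1.95 ± 0.20 SE, limma adjusted p = 2.33e-09).

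Pdia4 measured 13.10, 12.95 and 13.02 in liver and 11.49, 11.74 and 11.27 in lung, 2.88-fold lower (limma adjusted p = 1e-07). Hyou1 was 2.39-fold lower in lung (limma adjusted p = 0.00104) and Hsp90b1 1.73-fold lower (limma adjusted p = 2.44e-06). All 3 lungs lay below all 3 livers for 7 of the 10 genes (31.3% of all probes), namely Sdf2l1, Pdia4, Hyou1, Hsp90b1, Manf, Herpud1 and Dnajb9. Sdf2l1, Pdia4 and Hyou1 made up the 3 differences over 2-fold (34.8% of all probes).

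Smaller differences were seen for Herpud1 (-0.67 ± 0.28 SE, limma adjusted p = 0.0479), Manf (-0.59 ± 0.20, limma adjusted p = 0.0139) and Hspa5 (-0.45 ± 0.17, limma adjusted p = 0.0249). Hspa5 overlapped between the tissues, with 15.71, 14.82 and 15.49 in liver and 15.14, 14.79 and 14.74 in lung, and was not past the test without the liver of mouse 1 (-0.27) or 21 (-0.38) or the lung of mouse 11 (-0.41) or 21 (-0.38). The Herpud1 call was lost in 23 of the 36 fits without 1 array.

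Ddit3 measured 10.06, 10.01 and 10.20 in unirradiated livers and 10.33, 11.02 and 10.64 in unirradiated lungs, higher in lung by 0.58 ± 0.17 (SE, log2, limma adjusted p = 0.00527). It was not past the test without the lung of mouse 11 (0.40, limma adjusted p = 0.0645), nor with each array scaled to its 75th percentile (0.26, limma adjusted p = 0.168), where the median of all probes moved to -0.65. Creld2 differed by -0.03 ± 0.16 (limma adjusted p = 0.889) and Dnajb9 by -0.58 ± 0.28 (limma adjusted p = 0.089). Under the 75th percentile scaling Creld2 (-1.07) and Dnajb9 (-1.21) were past the test, both further down than that median.

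The unirradiated livers lay on slide 1 and the unirradiated lungs on slide 3. In the fit with slide as a random block, Hspa5 (-0.43, limma adjusted p = 0.0934), Manf (-0.58, limma adjusted p = 0.0512) and Herpud1 (-0.67, limma adjusted p = 0.113) were not past the test. As a fixed term, slide left Sdf2l1 (-1.65, limma adjusted p = 0.00434) and Pdia4 (-1.43, limma adjusted p = 0.0156) past it and no other of the 10 genes, with 0.07 for Hyou1 (limma adjusted p = 0.954), -0.46 for Hsp90b1 (limma adjusted p = 0.138) and 0.34 for Ddit3 (limma adjusted p = 0.51). Only the 12 Gy livers of mice 16 and 26 shared a slide with lungs.

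The 10 genes varied together only in part. Across the 18 liver arrays the 45 pairs had a median Pearson r of 0.41, and 0.14 after the dose means were taken away; across the lung arrays these were 0.29 and 0.24. The arrays of a pair share dose and slide, and the values are descriptions with no test. Creld2 and Manf had r = 0.92 in liver (0.77 without dose means) and Sdf2l1 and Manf 0.72 (0.73).

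**Figure D4:**
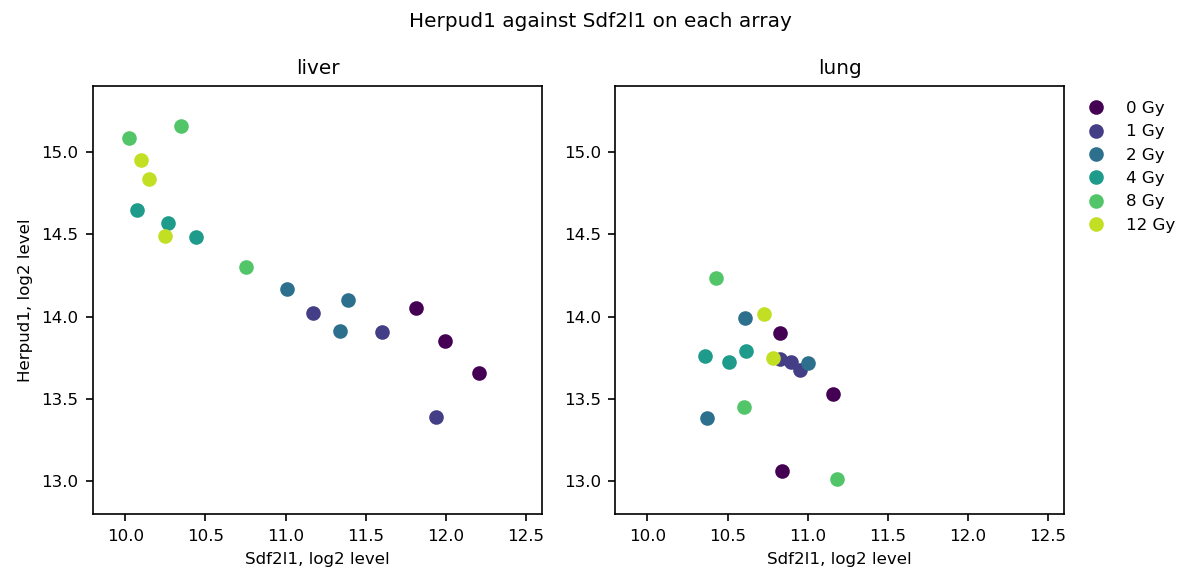
Herpud1 against Sdf2l1 log2 level, with a point per array coloured by dose, in liver and in lung. In liver the points run from high Sdf2l1 and low Herpud1 at low doses to the reverse from 4 Gy on (r = -0.91, 18 arrays), and in lung they scatter (r = -0.40, 17 arrays).

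Herpud1 ran opposite to Sdf2l1 and Manf in liver. Its r was -0.91 with Sdf2l1 (-0.83 without dose means, 18 arrays) and -0.67 with Manf (-0.74), so that within a dose, too, livers with less Sdf2l1 had more Herpud1. In lung Hspa5 and Hsp90b1 had r = 0.90 (0.89), Dnajb9 and Ddit3 0.83 (0.69) and Sdf2l1 and Ddit3 0.79 (0.75). The lung r of Sdf2l1 with Herpud1 was -0.40 (-0.39, 17 arrays).

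The genes whose liver pattern was most like the mean of the 10, each scaled to its own spread, were Mlec (r = 0.92 over 18 arrays, of 12036 genes ranked), an ER lectin that binds glycans of new glycoproteins, then Noc4l (0.91), Eif3b (0.89), a subunit of a translation initiation factor, Tmem214 (0.89), Gtf2h3 (0.88) and Hdlbp (0.88). The lowest were Zfp97 (-0.92), Saa1 (-0.86), an acute-phase protein, and Emp2 (-0.85). In lung, of 13426 genes, Thap1 (0.88), Actr3 (0.87), Fam118b (0.86), Slc9a7 (0.86) and Wrap73 (0.85) were among the highest and Obp1a, Gm11961 and Sp7 (each -0.82) lowest. None of these genes was common to both tissues. Not every member followed the mean of the 10. In liver r with it was 0.19 for Dnajb9 and -0.58 for Herpud1, and in lung 0.28 for Pdia4 and -0.20 for Herpud1. The other members given an r lay between 0.67 and 0.90 in liver and between 0.58 and 0.84 in lung.

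The wider ER machinery was counted in 6 lists, 1 probe per gene, beside the share of all probes. In liver the calls among the other ER chaperones and folding enzymes were all downward: 6 of 23 fell at 12 Gy (4.1% of all probes) and none rose (2.91%), with a median of -0.21, and 5 of 23 fell in the trend (5.47% of all probes). Calr, a lectin chaperone, fell by 1.06 at 12 Gy and had a trend of -0.88 ± 0.20 (SE, limma adjusted p = 0.00765). Pdia6, a disulfide isomerase, had a trend of -0.72 (limma adjusted p = 0.00313), and Dnajb11, a cochaperone of Hspa5, fell by 0.87 at 12 Gy (limma adjusted p = 0.00791).

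Genes of translocation into the ER and of secretory capacity were likewise called downward in liver, with 12 of 36 lower at 12 Gy (4.1% of all probes) and none higher (median -0.18). Sec61g, a subunit of the translocation channel, had a trend of -0.72, the ER transporter gene Slc35b1 of -0.83, and Kdelr3, a receptor that returns escaped chaperones, was at least 2.49-fold lower at 12 Gy. Of 20 genes of ER-associated degradation 2 fell (4.1% of all probes) and 1 rose (2.91%) at 12 Gy in liver. In the trend 1 fell, Derl2 (-0.62, limma adjusted p = 0.0172), and 2 rose, among them Erlec1 (0.35), where 5.47% of all probes fell and 4.04% rose. The degradation counts in liver are thus small and some are near these shares. Derl3, also a plasma cell marker, fell at 12 Gy (-2.17 ± 0.48, limma adjusted p = 0.013).

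Of 17 sensors and signalling genes Xbp1 fell in liver, by 0.44 at 12 Gy (limma adjusted p = 0.0447) and by 0.48 ± 0.13 (SE) in the trend (limma adjusted p = 0.0274), and neither Xbp1 call remained with slide as a random block or as a fixed term. The antioxidant regulator Nfe2l2 rose at 12 Gy (0.60, limma adjusted p = 0.0166). The array does not tell spliced from unspliced Xbp1 here. The liver trends of Ern1 (-0.32, limma adjusted p = 0.354), Atf6 (0.12), Atf4 (-0.02) and Eif2ak3 (0.01) were not past the test. Targets of PERK, ATF4 and CHOP split, with 5 of 29 lower (4.1% of all probes) and 5 higher (2.91%) at 12 Gy. The lower ones by trend included the serine and folate enzymes Psat1 (-1.11), Mthfd2 (-1.10, at least 2.44-fold lower at 12 Gy) and Phgdh (-0.80), and the higher ones Tnfrsf10b (2.40), Gdf15 (2.31) and Ddit4 (1.99), which p53 also raises.

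Taking slide as a random block, 6 other chaperones, 10 translocation genes, 1 degradation gene, 1 heat shock gene and 4 PERK, ATF4 and CHOP targets were lower at 12 Gy in liver, and 5 of those targets and 1 sensor gene were higher. In that fit 5.28% of all probes were past the test in either direction. As a fixed term, slide left 1 translocation gene lower, 1 PERK, ATF4 and CHOP target higher and no other gene of the 6 lists past the limma test at 12 Gy, and none in the liver trend. There 0.845% of all probes were past the test at 12 Gy and 0.282% in the trend.

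**Figure D5:**
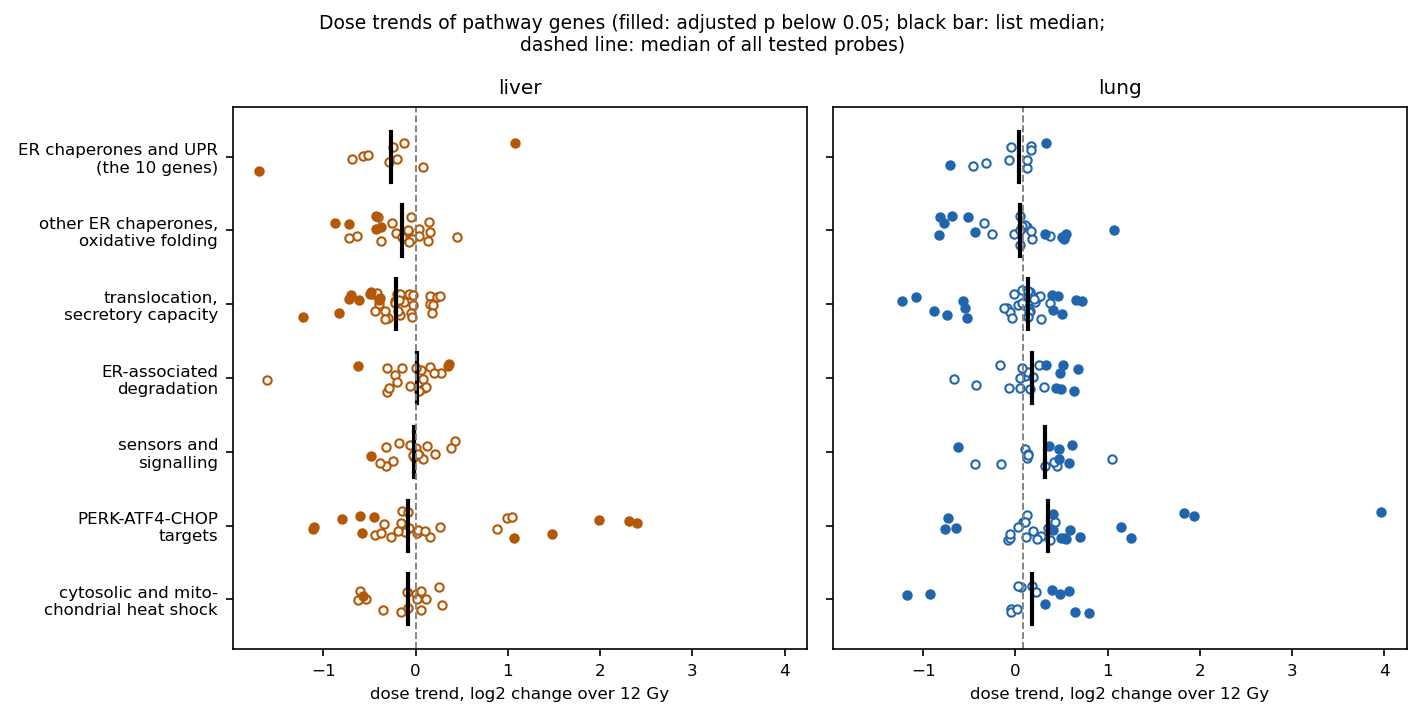
Dose trends (log2 change over 12 Gy) of the genes of 7 lists in liver and in lung, a point per gene, filled where the limma adjusted p is under 0.05; black bars are list medians and the dashed line is the median of all tested probes (0.00 in liver, 0.08 in lung). In liver the filled points of other chaperones and of translocation lie below 0, and in lung the filled points of degradation, sensor and PERK-ATF4-CHOP lists lie mostly above it.

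In lung the same lists moved otherwise. In the trend, where 19.7% of all probes rose and 11% fell, 7 of 20 genes of ER-associated degradation rose and none fell, among them Ube2g2 (0.68), Faf2 (0.63) and Vcp (0.51), the segregase that draws proteins out of the membrane. Of the 17 sensor genes 5 rose and 1, Eif2s1 (-0.62), fell. Atf6 rose by 0.58 ± 0.12 (SE, limma adjusted p = 0.00161), Ern1 by 0.48 ± 0.12 (limma adjusted p = 0.00721) and Eif2ak4 by 0.62, while Xbp1 (0.13, limma adjusted p = 0.533), Atf4 (0.32, limma adjusted p = 0.0809) and Eif2ak3 (-0.44, limma adjusted p = 0.204) were not past the test.

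Other chaperones in lung went both ways, 6 of 23 lower (11% of all probes) and 5 higher (19.7%) in the trend. Hspa13 (-0.83), Ero1b (-0.81) and Fkbp2 (-0.77) fell, and Dnajc10 (1.07), Ero1a (0.55) and Uggt1 (0.53) rose. Of 36 translocation genes 7 fell, with Stt3a (-1.23), Sec11c (-1.08) and Spcs3 (-0.88) first, and 6 rose, with Slc33a1 (0.72), Rpn2 (0.66) and Tmed10 (0.50) first, beside the same shares of all probes.

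Of 29 PERK, ATF4 and CHOP targets in lung 12 rose in the trend (19.7% of all probes) and 3 fell (11%), the latter again Phgdh (-0.76), Mthfd2 (-0.74) and Psat1 (-0.64). The largest rises were those of Gdf15 (3.96), Ddit4 (1.93) and Sesn2 (1.83). The heat shock genes of cytosol and mitochondria had 1 of 15 lower in the liver trend, Cryab (-0.58), where 5.47% of all probes were lower. In the lung trend 2 were lower, Hspa8 (-1.18) and Hsp90aa1 (-0.93), and 6 higher, led by Hspa1a (0.80), Hspa1b (0.65) and Cryab (0.58), beside the lung shares just given.

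These lung counts also depended on slide. As a random block it left 3 degradation genes higher in the trend in place of 7, 4 sensor genes higher and none lower, 4 other chaperones higher and 3 lower, 5 translocation genes higher and 3 lower, 11 PERK, ATF4 and CHOP targets higher and 3 lower, and 1 heat shock gene higher and 1 lower. In that fit 19.8% of all probes were past the test in either direction. As a fixed term slide left none of the 6 lists with a gene past the limma test in the lung trend, where 0.305% of all probes were.

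In the test between the tissues the trends of Xbp1 (0.65 ± 0.21 SE, limma adjusted p = 0.0288), Ern1 (0.72 ± 0.23, limma adjusted p = 0.0262) and Atf6 (0.54 ± 0.16, limma adjusted p = 0.0161) were higher in lung. Of 24 other chaperones 10 had the higher trend in lung (11% of all probes) and 4 the higher in liver (5.59%), and of 36 translocation genes 12 and 2. With a random slide block 1 sensor gene, 6 other chaperones and 10 translocation genes had the higher trend in lung, and 0, 2 and 0 had it in liver. In that fit 9.14% of all probes differed in either direction. With a fixed slide term no gene of these lists was past the limma test. In unirradiated tissue 14 of 20 degradation genes and 12 of 24 other chaperones were lower in lung than in liver (26.8% of all probes), with 0 and 5 higher (26%).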

How the data were processed

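The authors deposited single-colour Agilent mRNA array files with spot intensities, made per the file headers with Agilent Feature Extraction 11.5.1.1; the array design names build mm9, and no array coordinates are given here. Their methods name normexp, quantile normalization and limma, which were followed. The median spot and local background intensities were corrected by normexp (offset 0), control spots were dropped, spots marked as outliers were left out, and the arrays of a tissue (all 36 for joint fits) were quantile-normalized, after which log2 was taken and spots of a probe were averaged. The planned design named spot intensities without saying mean or median, and the median was used.

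Tests were run on the probes that 1 or more arrays measured well above background: 38362 in liver, 43979 in lung and 47376 jointly. limma 3.58.1 (R 4.3.3) fitted 6 dose groups or a linear dose per tissue, with Benjamini-Hochberg adjustment, and was tested on simulated data. The sources give 3 animals per dose, so n = 3 limits the precision. A gene was taken by its brightest probe. The 10 genes and the lists were chosen with earlier results of these data known. Named were all 10 genes, Xbp1, Atf4, Atf6, Ern1, Eif2ak3 and Cdkn1a, up to 3 genes per list, direction and tissue with the largest trend among those past the test, and the genes most and least like the mean of the 10. Symbols came from RefSeq by accession for 34566 probes; 9009 probes with Ensembl transcript names were not matched. A fold with "at least" sets the bright group against the dim group's signals, raised on each array to the lowest signal of probes well above background. Alternatives were another offset, the 75th percentile, the processed signal, log2 of the authors' deposited table of processed signal as a ratio to the 75th percentile, other filters, slide, log2 dose and leaving out each array. Neighbouring doses, trends within slides and patterns like Sdf2l1 were added after the data were seen. The miRNA arrays were not used here, and a few genes that the naming rule would give are not reported here.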

Additional observations from a re-analysis of the deposited data

Results flagged for a closer look

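The dose trends of 2 of the 10 genes differed between the tissues by a test of the difference itself, in the joint fit of 36 arrays, where 16.5% of all probes did. The trend of Sdf2l1 over 12 Gy was 1.50 higher on the log2 scale in lung than in liver (SE 0.33, limma adjusted p = 0.00200). The trend of Creld2 was 0.88 higher in lung (SE 0.27, limma adjusted p = 0.0234). With each tissue normalized on its own, the trends were -1.70 in liver and -0.05 in lung for Sdf2l1, and -0.57 and 0.33 for Creld2. With slide as a fixed term the differences were 0.19 for Sdf2l1 and 0.30 for Creld2, neither past the test.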

How the results depend on the processing

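Counts of the 10 genes past the test (main values 0, 1, 3, 2 and 4 at 1 to 12 Gy in liver, 0, 0, 0, 0 and 1 in lung, 2 in each trend, 2 in the difference of trends and 8 between unirradiated tissues) were within 1.5 times of the main count except as follows. A whole number alone in brackets counts all probes past the test in the same fit. It is out of 38362 in liver, 43979 in lung and 47376 jointly unless stated. In the main fits it was 177, 1269, 3798 and 2690 at 2 to 12 Gy in liver and 1869 and 9392 at 8 and 12 Gy in lung. The trends had 3647 in liver and 13500 in lung, the difference 7838 and the unirradiated tissues 25017. Scaling to the 75th percentile gave 4 at 8 Gy in liver (4022), 2 at 12 Gy in lung (11174) and 4 in the difference (9362). An offset of 50 gave 3 at 2 Gy (370) and 4 at 8 Gy (4601) in liver. In lung that offset gave 1 at 8 Gy (2223) and 2 at 12 Gy (10024), and it gave 5 in the difference (8917). The scanner's processed signal gave 2 at 12 Gy in lung (11783) and 5 in the difference (9832). The deposited normalized values gave 2 at 12 Gy in lung (11226) and 4 in the difference (9645). Without a filter on dim probes liver had 0 at 2 Gy (93 of 56605) and 1 at 4 Gy (705 of 56605). With the filter at 3 arrays it had 4 at 8 Gy (4793 of 29475). The 36 arrays normalized together gave 2 at 2 Gy (348 of 47376) and 4 at 8 Gy (3303 of 47376) in liver and 1 in the lung trend (12387 of 47376). A dose scale of log2(dose + 1) gave 6 in the liver trend (5357), 1 in the lung trend (9416) and 4 in the difference (5276). The 6 were Hsp90b1, Pdia4, Sdf2l1, Creld2, Manf and Herpud1. Slide as a fixed term gave 0 in liver at 2 Gy (139), 4 Gy (68), 8 Gy (270) and 12 Gy (324). It gave 0 in the liver trend (108), the lung trend (134) and the difference (0), and 2 between unirradiated tissues (15768). Slide as a random block gave 1 at 4 Gy in liver (635), 0 at 12 Gy in lung (1794), 1 in the difference (4330) and 5 between unirradiated tissues (22277). The lung trend over slides 3 and 4 had 1 gene, Ddit3 (-0.98, limma adjusted p = 0.0425), where 2312 of 43979 probes were past the test. The liver trend within slide 2, on 8 arrays, had 0, and 0 of 38362 probes were past the test there. The cause of these changes was not tested. Leaving out 1 array gave 0 to 0, 0 to 2, 1 to 4, 2 to 4 and 1 to 5 in liver, 0 at 1 to 8 Gy and 1 to 1 at 12 Gy in lung, 2 to 3 and 1 to 2 in the liver and lung trends, 1 to 4 in the difference and 5 to 8 between unirradiated tissues. Counts over all probes are not given for the fits without 1 array.

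The Ddit3 trend in lung, -0.07, turned to 0.0612 with the 75th percentile, 0.109 with the processed signal, 0.0447 with the deposited normalized values, 0.0137 without the 0 Gy mouse 11 and 0.00894 without the 8 Gy mouse 15, and without 1 array it ranged from -0.199 to 0.0137. Over slides 3 and 4, without slide 5, that trend was -0.98. With slide as a fixed term the sign turned for Hyou1 at 12 Gy (0.56) and between unirradiated tissues (0.0739), the Hsp90b1 liver trend (0.12), the Manf (-0.10) and Herpud1 (0.0556) differences of trends and Creld2 between unirradiated tissues (0.0302, and 0.0128 without the 0 Gy liver of mouse 11). Within slide 2 the liver trends of Hsp90b1 (0.17), Creld2 (0.39) and Manf (0.26) were positive. The 75th percentile moved the median of all probes by over 0.1 in lung (0.26 at 12 Gy, 0.24 in the trend) and to -0.65 between unirradiated tissues, where the processed signal moved it to -0.39 and the deposited values to -0.32.

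Same-numbered liver and lung arrays did not deviate together (18 pairs, r from -0.05 to 0.05). This cannot decide whether they came from the same animals, since tissues of the same animal need not deviate together. The main fit had no block on the number because the paper describes none. A replicate block on the number gave 3 genes in the difference of trends, Herpud1 added (-1.17, limma adjusted p = 0.0316), and 7 between unirradiated tissues, Herpud1 lost (limma adjusted p = 0.0514). In these fits 7419 and 24482 of 47376 probes were past the test. Hyou1 was near background in both tissues, so its values are the least certain.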

Other observations

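Sdf2l1 was also taken alone as the reference for like patterns, a choice made after the data were seen. Across the 18 liver arrays, of 12036 genes, those most like it were Sec61b (r = 0.95), Calr (0.94), Sec61g (0.94), Ddost (0.94), Nudt7 (0.93) and Atg4b (0.93). Sec61b and Sec61g are subunits of the channel through which proteins enter the ER, Ddost is a subunit of the enzyme that adds glycans to them, and Calr is a lectin chaperone. With the dose means taken away the values were 0.72 for Sec61b, 0.73 for Calr, 0.49 for Sec61g and 0.56 for Ddost. Xbp1 ranked 63 (r = 0.88, and 0.64 without dose means). The genes most opposite to Sdf2l1 were Trp53inp1 (-0.96), Ccng1 (-0.94) and Id1 (-0.93); Trp53inp1 and Ccng1 are p53 targets. Across the lung arrays, of 13426 genes, the highest were Cracd, H3c13 and Magt1 (each 0.82), and Obp1a was lowest (-0.79). All these arrays share dose and slide, and the values are descriptions with no test.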
